A study of Mus musculus with 9 samples.

Results

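The mitochondrial solute carriers described here are the genes whose mouse symbol, looked up from the Entrez ID, starts with Slc25a. They numbered 43 of the 16873 genes of the files. Heart RNA was sequenced from 3 groups of 3 libraries, in a study of what the cGAS-STING pathway does in hearts injured by low-dose doxorubicin (DOX), an anthracycline cancer drug. The first group held Sting-/- mice given doxorubicin (Sting-/- DOX), which lack the adaptor protein that relays the signal of the DNA sensor cGAS to interferon genes. The second held wild-type mice given doxorubicin (WT DOX), and the third held wild-type mice given saline (WT saline). Sting-/- hearts without doxorubicin were not analysed here, so what the genotype does on its own enters each comparison with the Sting-/- group, and no interaction could be tested. Since no label states that each library is a different mouse, the p-values reflect the spread between the sequenced samples, and that spread may be technical.

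The SLC25 proteins are the main carriers of the mitochondrial inner membrane. Each is a single chain that moves nucleotides, phosphate, carboxylates, amino acids, acylcarnitines, cofactors or ions between the cytosol and the matrix, most often by exchanging a substrate on one side for another on the other side. In the heart the ADP/ATP carrier and the phosphate carrier feed ATP synthase and release its product, the carnitine-acylcarnitine carrier admits fatty acids for oxidation, and the oxoglutarate and aspartate-glutamate carriers form the malate-aspartate shuttle, which brings cytosolic reducing equivalents to the respiratory chain. The symbol does not fix the location of every member: Slc25a17 is a peroxisomal protein and Slc25a46 lies in the outer mitochondrial membrane.

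Expression was given as FPKM, the fragments of a gene per kilobase of its transcript and relative to all those mapped in that library. Sting1, the deleted gene, stood at 0.06, 0 and 0 FPKM in the Sting-/- DOX libraries, against 17.49, 17.96 and 17.76 FPKM in WT DOX and 5.1, 5.43 and 5.93 FPKM in WT saline, which fits the genotype labels. The steps between low values gave an approximate depth, as multiples of 1e+06 fragments, of 8.3 to 8.8 in Sting-/- DOX, 13.5 to 14.3 in WT DOX and 11.7 to 12 in WT saline. The 16 cardiomyocyte markers included genes of contraction, calcium handling and energy metabolism in heart muscle. All were present in every group, but their summed level was 10777 to 11425 FPKM in Sting-/- DOX, 51733 to 54123 in WT DOX and 76866 to 79447 in WT saline. The 10 endothelial markers summed to 1471 to 1576, 336 to 345 and 344 to 358 FPKM in the same order, and the 10 fibroblast markers to 7062 to 7393, 1343 to 1374 and 1015 to 1040 FPKM. The 10 macrophage and monocyte markers summed to 2590 to 2699 FPKM in Sting-/- DOX, 1338 to 1500 in WT DOX and 422 to 476 in WT saline. No marker of these lists was at 0 in all libraries of a group. In RNA from whole tissue, fewer cells of a type and less RNA per cell cannot be told apart, and the part of these shifts in the values below was not tested.

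The summed FPKM of the carriers was lowest in the Sting-/- DOX hearts, although single carriers differed in direction, as given below. The summed level of all 43 genes was 1616 ± 46.9 FPKM in Sting-/- DOX, 5348 ± 176 FPKM in WT DOX and 6975 ± 121 FPKM in WT saline (SD, n = 3 each). The group ranges were 1562.3 to 1646.6, 5158.3 to 5505.5 and 6848.3 to 7088.5 FPKM, so they did not overlap. The sum made up 0.299%, 0.945% and 1.26% of all FPKM of a library. Most of the loss lay in the 2 most abundant carriers: without Slc25a4 and Slc25a3 the sum was 672 ± 16.2 FPKM in Sting-/- DOX, 1198 ± 21.6 FPKM in WT DOX and 1414 ± 12.7 FPKM in WT saline. Slc25a4 alone held 34.3% of the family sum in Sting-/- DOX, 55.2% in WT DOX and 57.7% in WT saline.

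**Figure D1:**
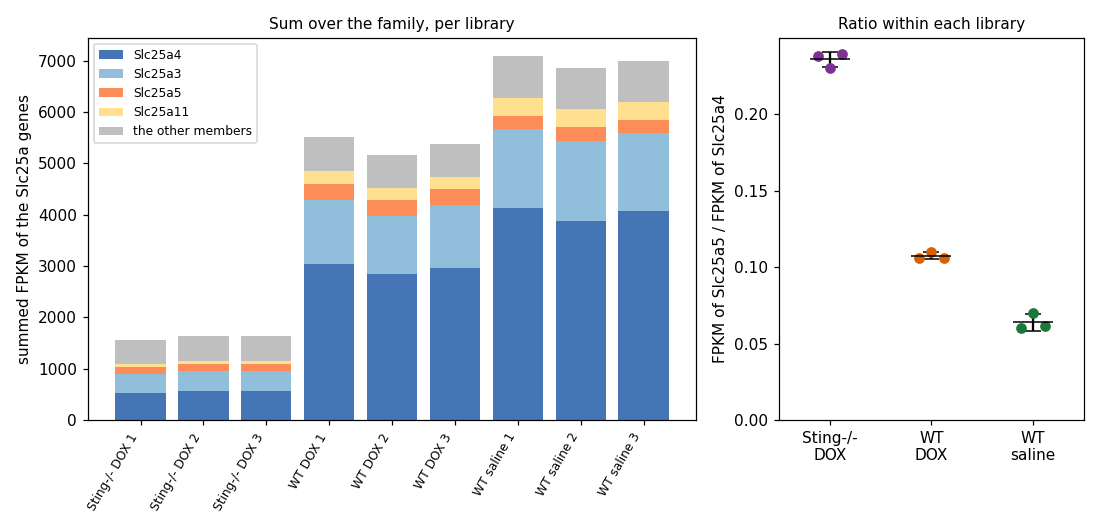
Summed FPKM of the 43 carriers in each library, split into Slc25a4, Slc25a3, Slc25a5, Slc25a11 and the others (bars, from 0), and the ratio of Slc25a5 to Slc25a4 in each library (points). The sum lies between 1562.3 and 1646.6 FPKM in Sting-/- DOX and above 5158 FPKM in every wild-type library, while the ratio is 0.23 to 0.239 in Sting-/- DOX, 0.106 to 0.11 in WT DOX and 0.06 to 0.0703 in WT saline.

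Single genes were compared with limma on log2(FPKM + 1), with p-values adjusted by Benjamini-Hochberg over the 12485 genes whose mean was at least 1 FPKM, and an adjusted p under 0.05 counted as changed. Of the 43 carriers, 38 were tested and 5 were under that filter. Fold changes are given on the log2(FPKM + 1) scale with a standard error, and they understate the change of low genes. WT DOX stood in both main comparisons, with WT saline and with Sting-/- DOX, so the 2 comparisons share its libraries and are not independent.

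Doxorubicin-treated wild-type hearts had lower levels of many carriers: 20 of the 38 tested (52.6%) fell and 6 (15.8%) rose in WT DOX against WT saline. Over all genes tested 21.5% fell and 45.3% rose, 66.7% in either direction. The median change of the carriers was -0.19, against 0.13 for all genes, a gap of -0.32. Group ranges were apart for 30 carriers (78.9%) and for 71.7% of all genes. When each library was scaled by its median ratio to the others, 26 fell and 4 rose, so that 13.3% of the changed carriers were higher, against 23.1% without that scaling. Alongside, 13 of the 16 cardiomyocyte markers fell and 1 rose, with a median change of -0.58.

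Between the doxorubicin-treated genotypes the carriers split: 18 of 38 (47.4%) fell and 16 (42.1%) rose in Sting-/- DOX against WT DOX, where 29.7% and 54.1% of all genes did. Here 83.8% of all genes tested passed the threshold in either direction, so the pass of a single carrier sets it apart little. On the log2(FPKM + 1) scale the falls were uneven in size, reaching -3.09 for Slc25a34, while no rise exceeded 1.61, that of Slc25a27. This scale understates the change of low genes such as Slc25a27, which averaged 7.47 FPKM in Sting-/- DOX and 1.80 FPKM in WT DOX. The carriers' median was -0.15 and that of all genes 0.25, a gap of -0.39. Ranges were apart for 34 carriers (89.5%) and 84.8% of all genes. Under median-ratio scaling 22 fell and 12 rose, moving the share higher among changed carriers to 35.3%, against 47.1% without it. With each library scaled to the same FPKM total (TPM scaling), 16 fell and 17 rose, a share of 51.5%, so the more frequent direction depends on the scaling. All 16 cardiomyocyte markers fell, with a median of -2.26, and all 10 endothelial and 9 of the 10 fibroblast markers rose.

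**Figure D2:**
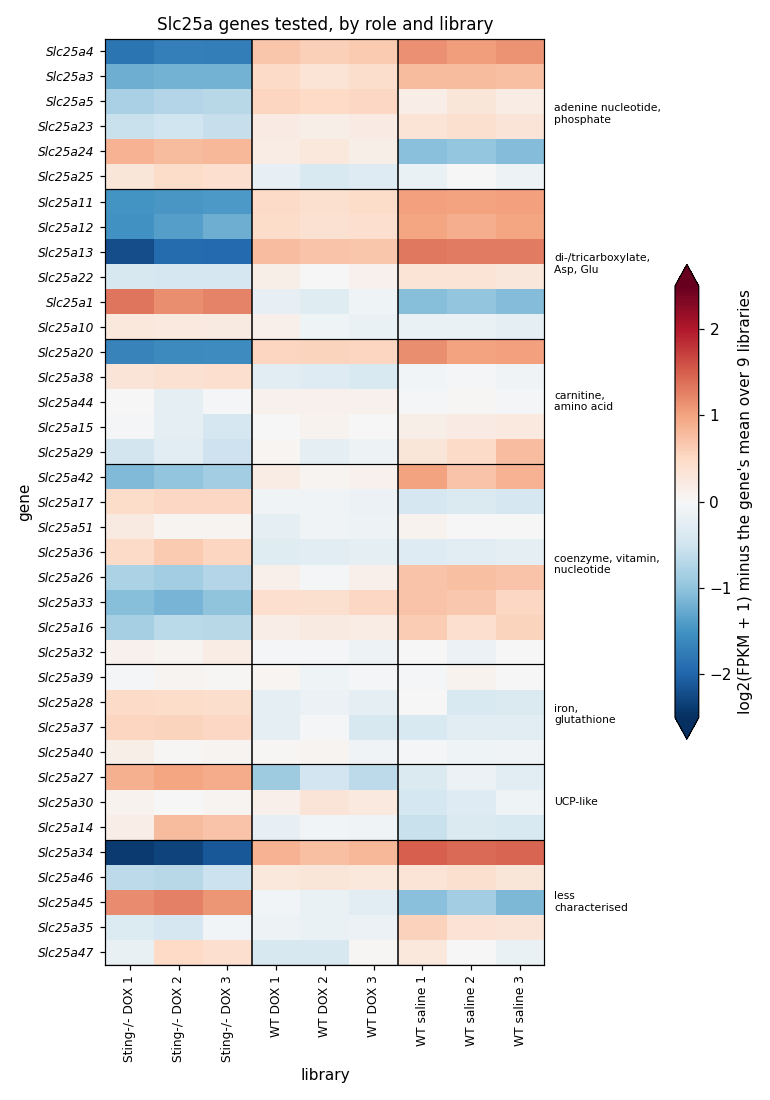
Log2(FPKM + 1) of 37 tested carriers (rows, grouped by role) in the 9 libraries (columns), each row centred on its mean over all libraries, with colours running from -2.5 to 2.5. Libraries of a group look alike, the 14 carriers that fell in both main comparisons grade from low in Sting-/- DOX to high in WT saline, and Slc25a1, Slc25a24 and Slc25a45 grade the other way.

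Crossing the 2 comparisons put the carriers into groups of different behaviour. Those that fell in both were 14: Slc25a3, Slc25a4, Slc25a11, Slc25a12, Slc25a13, Slc25a16, Slc25a20, Slc25a22, Slc25a23, Slc25a26, Slc25a29, Slc25a33, Slc25a34 and Slc25a42. Those that rose in both were 4, Slc25a1, Slc25a17, Slc25a24 and Slc25a45. Slc25a25, Slc25a27, Slc25a38 and Slc25a51 were lower in WT DOX than in WT saline and higher in Sting-/- DOX than in WT DOX. Slc25a5 alone was called in the opposite order, higher in WT DOX than in WT saline and lower in Sting-/- DOX than in WT DOX. Because both comparisons contain WT DOX, opposite signs can arise from its libraries alone. The 14 falls held in both comparisons under median-ratio scaling and quantile normalisation. The rise of Slc25a17 in WT DOX against WT saline was 0.055 and 0.08 under these and did not pass, and neither did the rises of Slc25a10, Slc25a32, Slc25a47 and Slc25a51 in Sting-/- DOX against WT DOX. Carriers without a call in FPKM that passed as lower under both were Slc25a15, Slc25a32, Slc25a36, Slc25a39, Slc25a46 and Slc25a47 in WT DOX against WT saline, and Slc25a30, Slc25a35 and Slc25a40 in Sting-/- DOX against WT DOX.

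**Figure D3:**
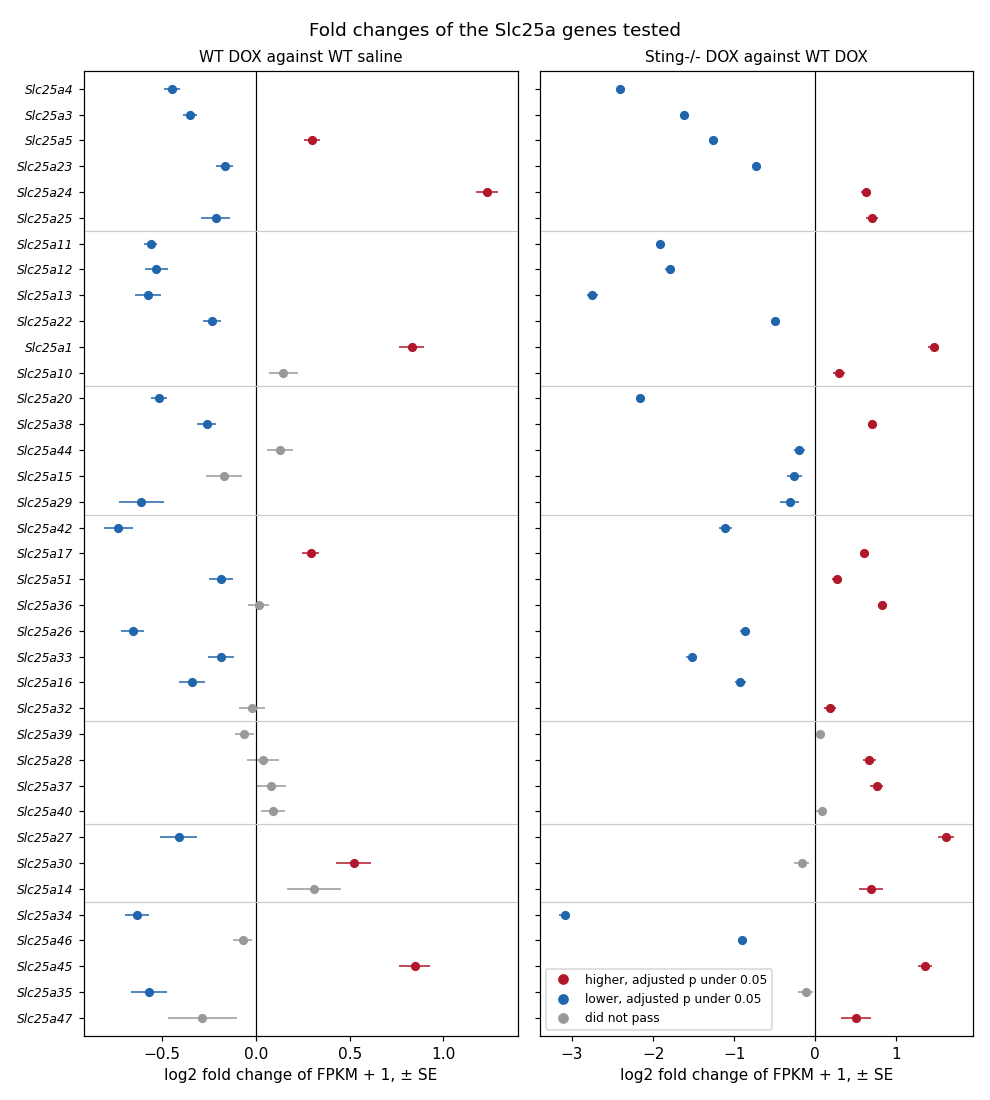
Log2 fold change of 37 tested carriers, on the log2(FPKM + 1) scale, in Sting-/- DOX against WT DOX and in WT DOX against WT saline, with bars of 1 standard error. Falls in Sting-/- DOX against WT DOX reach -3.09 (Slc25a34) and rises 1.61 (Slc25a27), and values in WT DOX against WT saline span -0.74 (Slc25a42) to 1.23 (Slc25a24).

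Among the adenine nucleotide and phosphate carriers, 6 of 7 were tested, and 4 fell and 2 rose in each of the main comparisons. Beside this and the role counts below, 21.5% of all genes fell and 45.3% rose in WT DOX against WT saline (66.7% in either direction). In Sting-/- DOX against WT DOX 29.7% fell and 54.1% rose (83.8% in either direction). Slc25a4 encodes ANT1, the ADP/ATP carrier typical of heart and skeletal muscle, and was the most abundant member. It stood at 527.13, 571.06 and 565.89 FPKM in Sting-/- DOX, against 3039.65, 2845.38 and 2965.09 FPKM in WT DOX and 4121.11, 3883.43 and 4080.65 FPKM in WT saline. All 3 groups were apart, with every Sting-/- library far below the lowest wild-type library. Its change was -2.41 ± 0.04 in Sting-/- DOX against WT DOX (SE, adjusted p = 1.73e-13) and -0.45 ± 0.04 in WT DOX against WT saline (adjusted p = 1.23e-06). Slc25a3, the carrier that brings in phosphate for ATP synthesis, had 381.59, 392.56 and 395.81 FPKM in Sting-/- DOX, 1245.4, 1135.66 and 1217.91 FPKM in WT DOX and 1544.64, 1546.15 and 1507.53 FPKM in WT saline. It kept the same order of groups, with changes of -1.62 ± 0.04 (adjusted p = 1.9e-12) in Sting-/- DOX against WT DOX and -0.35 ± 0.04 (adjusted p = 4.76e-06) in WT DOX against WT saline.

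Slc25a5, which encodes ANT2, the ADP/ATP carrier of many tissues and of growing cells, did not follow Slc25a4. It stood at 125.41, 131.59 and 135.21 FPKM in Sting-/- DOX, 321.16, 312.04 and 314.94 FPKM in WT DOX and 247.22, 273.15 and 251.23 FPKM in WT saline. The WT DOX libraries were the highest and the Sting-/- DOX libraries the lowest, without overlap. The change was -1.27 in Sting-/- DOX against WT DOX (adjusted p = 6.36e-11) and 0.30 ± 0.04 in WT DOX against WT saline (adjusted p = 7.73e-05), a rise that became 0.045 (adjusted p = 0.369) under median-ratio scaling. A RefSeq pseudogene copy of Slc25a5 was not analysed here, so its level is uncertain to the extent that reads were shared. The ratio of Slc25a5 to Slc25a4 does not change when a library is multiplied by a single factor, as in median-ratio and TPM scaling. It was 0.238, 0.23 and 0.239 in Sting-/- DOX, 0.106, 0.11 and 0.106 in WT DOX and 0.06, 0.0703 and 0.0616 in WT saline. It was thus 2.2-fold higher in Sting-/- DOX than in WT DOX and 1.68-fold higher in WT DOX than in WT saline, each with p = 0.1 in a two-sided exact permutation test, the smallest p that 3 against 3 allows. Slc25a31, an ADP/ATP carrier best known from testis, was under the filter, at 0.11 to 0.24 FPKM in Sting-/- DOX, 0.11 to 0.52 in WT DOX and 0.13 to 0.34 in WT saline.

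The calcium-regulated ATP-Mg/phosphate carriers adjust the adenine nucleotide content of the matrix, and they moved apart from each other. Slc25a24 had 14.64, 13.83 and 14.2 FPKM in Sting-/- DOX, 8.77, 9.37 and 8.54 FPKM in WT DOX and 3.19, 3.4 and 3.04 FPKM in WT saline. The groups did not overlap, and the rise was 0.62 in Sting-/- DOX against WT DOX (adjusted p = 7.8e-07) and 1.23 ± 0.06 in WT DOX against WT saline (adjusted p = 3.81e-09), where no other carrier rose as much. Slc25a23, its paralogue, ran the other way, with 14.0, 14.53 and 13.73 FPKM in Sting-/- DOX, 24.21, 23.3 and 24.41 FPKM in WT DOX and 26.65, 28.15 and 26.4 FPKM in WT saline, and fell in both comparisons. Slc25a25 stood at 6.08, 6.95 and 6.75 FPKM in Sting-/- DOX, 3.98, 3.43 and 3.63 FPKM in WT DOX and 4.15, 4.85 and 4.31 FPKM in WT saline. The Sting-/- libraries were the highest, at 0.70 above WT DOX (adjusted p = 3.1e-06). The fall in WT DOX against WT saline, -0.22 ± 0.08 (adjusted p = 0.0257), did not pass without WT saline 2 (-0.16), WT DOX 2 (-0.18) or WT DOX 3 (-0.21). Slc25a25 overlaps Naif1 in the annotation and the strand setting of the counting is not given in the sources used here, so reads of the pair may be mixed.

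**Figure D4:**
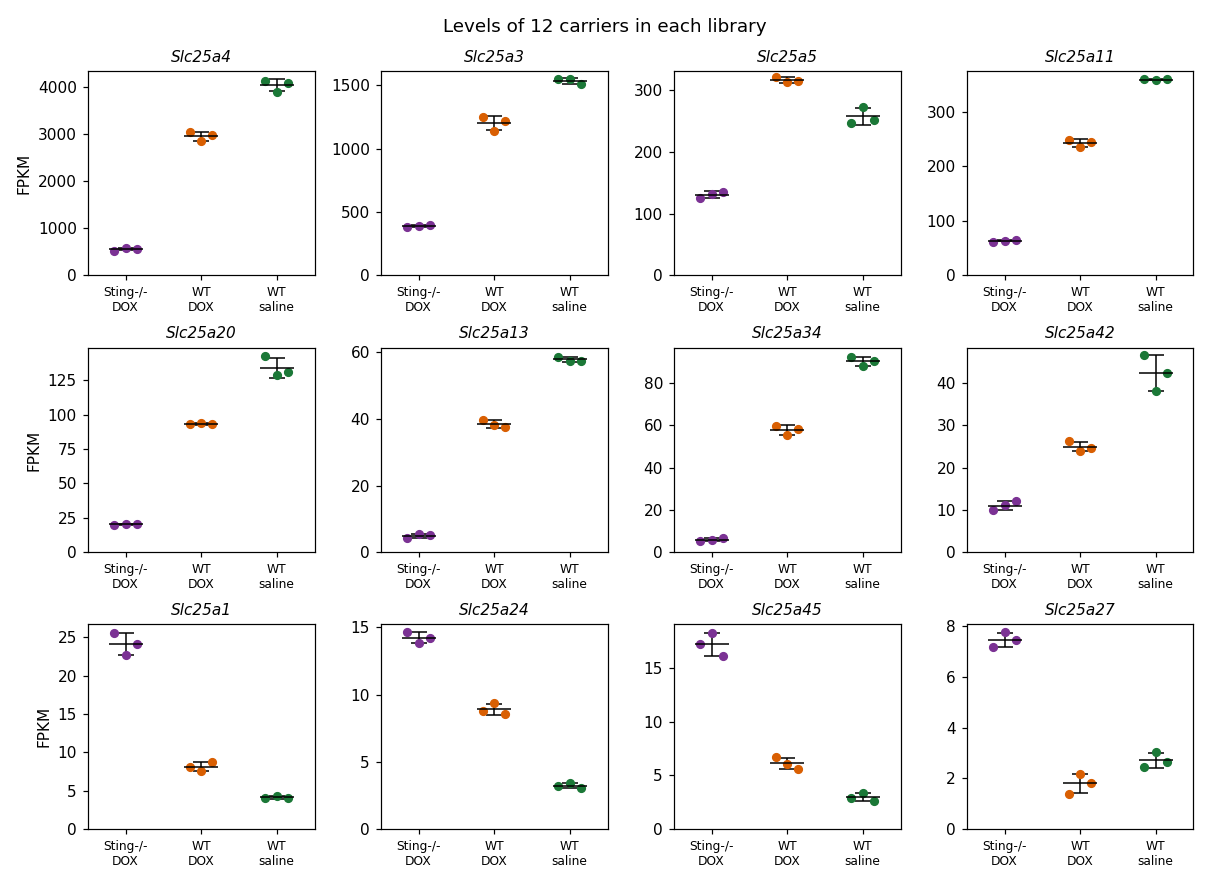
FPKM of 12 carriers in each library (points), with the group mean and SD (n = 3 each) in Sting-/- DOX, WT DOX and WT saline, each panel on its own axis. Slc25a4, Slc25a3, Slc25a11, Slc25a20, Slc25a13, Slc25a34 and Slc25a42 step up across the groups in that order, Slc25a1, Slc25a24 and Slc25a45 step down, Slc25a5 is highest in WT DOX and Slc25a27 is lowest there.

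The carriers of carboxylates, aspartate and glutamate included those of the malate-aspartate shuttle, which all fell. Of 6 tested, 4 fell and 1 rose in WT DOX against WT saline, and 4 fell and 2 rose in Sting-/- DOX against WT DOX. Slc25a11, the oxoglutarate/malate carrier, had 61.97, 63.72 and 64.36 FPKM in Sting-/- DOX, 248.01, 234.63 and 244.89 FPKM in WT DOX and 359.36, 357.28 and 359.57 FPKM in WT saline. The groups were widely apart, with changes of -1.92 (adjusted p = 2.28e-13) in Sting-/- DOX against WT DOX and -0.56 ± 0.03 (adjusted p = 3.15e-08) in WT DOX against WT saline. Slc25a11 overlaps Rnf167, with the same limit on strand.

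Both aspartate-glutamate carriers fell, Slc25a13 by the larger value. Slc25a12 (aralar), the form that predominates in heart and brain, had 15.43, 17.08 and 19.03 FPKM in Sting-/- DOX, 63.38, 60.28 and 61.81 FPKM in WT DOX and 91.54, 86.65 and 91.5 FPKM in WT saline. Slc25a13 (citrin), best known from liver, had 4.16, 5.33 and 5.2 FPKM in Sting-/- DOX, 39.84, 38.18 and 37.72 FPKM in WT DOX and 58.74, 57.57 and 57.48 FPKM in WT saline. Both genes had non-overlapping groups in the same order. The change was -1.79 for Slc25a12 (adjusted p = 7.26e-11) and -2.75 for Slc25a13 (adjusted p = 3.91e-12) in Sting-/- DOX against WT DOX. Between WT DOX and WT saline it was -0.53 ± 0.06 for Slc25a12 (adjusted p = 1.21e-05) and -0.58 ± 0.07 for Slc25a13 (adjusted p = 1.45e-05). Slc25a22, a glutamate carrier, fell in both comparisons, at 17.67 to 18.12 FPKM in Sting-/- DOX, 24.3 to 26.91 in WT DOX and 29.63 to 30.79 in WT saline.

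Slc25a1, the citrate carrier that exports citrate for fatty acid and sterol synthesis, went against its group. It stood at 25.59, 22.66 and 24.06 FPKM in Sting-/- DOX, 8.14, 7.54 and 8.76 FPKM in WT DOX and 4.06, 4.35 and 4.01 FPKM in WT saline. Each group lay wholly above the next, and the rise was 1.46 in Sting-/- DOX against WT DOX (adjusted p = 7.67e-10) and 0.83 ± 0.07 in WT DOX against WT saline (adjusted p = 3.9e-07). Slc25a10, the dicarboxylate carrier, had 6.33 to 6.58 FPKM in Sting-/- DOX, 4.59 to 5.88 in WT DOX and 4.36 to 4.57 in WT saline, and passed the test as higher in Sting-/- DOX against each wild-type group. Neither rise passed under median-ratio scaling or quantile normalisation, where the change against WT saline was -0.067 and -0.106. Slc25a18, a second glutamate carrier, was under the filter at 0.4 to 0.73 FPKM in Sting-/- DOX, 0.06 to 0.12 in WT DOX and 0.07 to 0.33 in WT saline.

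Of the carnitine and amino acid carriers, 5 of 6 were tested. Of these, 3 fell and 0 rose in WT DOX against WT saline, and 4 fell and 1 rose in Sting-/- DOX against WT DOX. Under TPM scaling 2 fell and 1 rose in the second comparison. Slc25a20, the carnitine-acylcarnitine carrier of fatty acid oxidation, had 19.42, 20.39 and 20.63 FPKM in Sting-/- DOX, 92.84, 93.75 and 93.2 FPKM in WT DOX and 142.57, 128.85 and 131.05 FPKM in WT saline. The groups were apart, and the change was -2.16 (adjusted p = 7.83e-13) in Sting-/- DOX against WT DOX and -0.52 ± 0.04 (adjusted p = 8.01e-07) in WT DOX against WT saline. Slc25a29, a carrier of basic amino acids, had 1.91, 2.27 and 1.8 FPKM in Sting-/- DOX, 3.13, 2.42 and 2.66 FPKM in WT DOX and 3.91, 4.56 and 5.76 FPKM in WT saline. It fell by 0.61 ± 0.12 in WT DOX against WT saline (adjusted p = 0.000659). Its change of -0.32 in Sting-/- DOX against WT DOX (adjusted p = 0.0249) did not pass without WT DOX 1 (-0.24), Sting-/- DOX 1 (-0.30) or Sting-/- DOX 3 (-0.27).

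Slc25a38, the glycine carrier that supplies haem synthesis, was the member of this group that rose in Sting-/- DOX. It stood at 17.09, 17.68 and 18.36 FPKM in Sting-/- DOX, 10.96, 10.6 and 10.12 FPKM in WT DOX and 12.81, 13.16 and 12.66 FPKM in WT saline. WT DOX was the lowest group, without overlap: the change was 0.70 in Sting-/- DOX against WT DOX (adjusted p = 6.18e-08) and -0.26 ± 0.05 in WT DOX against WT saline (adjusted p = 0.000584). All 5 tested erythroid markers rose in Sting-/- DOX against WT DOX and fell in WT DOX against WT saline, with 7 markers summing to 8481 to 9701 FPKM in Sting-/- DOX, 1498 to 1638 in WT DOX and 2454 to 2549 in WT saline. The part of red cells in the level of Slc25a38 was not tested. Slc25a15, the ornithine carrier, and Slc25a44, a branched-chain amino acid carrier, both passed as lower in Sting-/- DOX against WT DOX, at 2.43 to 3.54 against 3.56 to 3.87 FPKM and at 6.54 to 8.02 against 8.66 to 8.7 FPKM. Neither was among the 2 carriers of this group that passed as lower there under TPM scaling. Slc25a15 was also lower in Sting-/- DOX than in WT saline, where it stood at 4.07 to 4.47 FPKM. Slc25a2, another ornithine carrier, was under the filter with 0.37 to 0.95 FPKM in Sting-/- DOX, and was listed at 0 in every WT DOX library and in 2 WT saline libraries.

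All 9 carriers of coenzymes, vitamins and nucleotides were tested. Here 6 fell and 1 rose in WT DOX against WT saline, and 4 fell and 5 rose in Sting-/- DOX against WT DOX. The 55.6% that rose in the second comparison were near the 54.1% of all genes. Under median-ratio scaling, and also under quantile normalisation, 3 rose and 4 fell there. Slc25a42, which carries coenzyme A into the matrix, had 9.99, 11.07 and 12.02 FPKM in Sting-/- DOX, 26.18, 24.0 and 24.58 FPKM in WT DOX and 46.5, 38.11 and 42.33 FPKM in WT saline. On the log2(FPKM + 1) scale no tested carrier fell further in WT DOX against WT saline, -0.74 ± 0.08 (adjusted p = 4.53e-06). Slc25a42 changed by -1.11 in Sting-/- DOX against WT DOX (adjusted p = 4.39e-08). Slc25a26, which imports S-adenosylmethionine for methylation in the matrix, had 4.82, 4.47 and 5.06 FPKM in Sting-/- DOX, 9.93, 8.78 and 9.94 FPKM in WT DOX and 15.56, 16.01 and 15.35 FPKM in WT saline. It fell by 0.66 ± 0.06 in WT DOX against WT saline (adjusted p = 1.94e-06) and by 0.87 in Sting-/- DOX against WT DOX (adjusted p = 6.4e-08), and it overlaps Lrig1 in the annotation.

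Slc25a51, the mammalian mitochondrial NAD carrier, is of interest because the study concerns NAD. It stood at 18.42, 16.24 and 16.25 FPKM in Sting-/- DOX, 12.98, 14.52 and 14.17 FPKM in WT DOX and 16.69, 15.69 and 15.48 FPKM in WT saline. The WT DOX libraries lay below both other groups, which overlapped each other. The change was 0.27 in Sting-/- DOX against WT DOX (adjusted p = 0.00163), but -0.052 under median-ratio scaling and 0.053 under quantile normalisation, neither of which passed. The change of -0.19 ± 0.06 in WT DOX against WT saline (adjusted p = 0.0195) did not pass without WT saline 1 (-0.16) or WT DOX 1 (-0.14).

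The 2 pyrimidine nucleotide carriers of the group, which serve mitochondrial DNA and RNA synthesis, parted in Sting-/- DOX. Slc25a36 had 20.49, 23.18 and 21.33 FPKM in Sting-/- DOX, 11.52, 11.7 and 12.14 FPKM in WT DOX and 11.3, 11.71 and 12.01 FPKM in WT saline. Both wild-type groups overlapped (0.013, adjusted p = 0.848), and Sting-/- DOX was 0.82 above WT DOX (adjusted p = 2.77e-08). Slc25a33 stood at 3.24 to 3.71 FPKM in Sting-/- DOX, 11.53 to 12.59 in WT DOX and 12.55 to 14.61 in WT saline, and fell in both comparisons, with overlapping wild-type ranges. Slc25a16, linked to coenzyme A by work on its yeast counterpart, fell in both, at 4.29 to 4.89 FPKM in Sting-/- DOX, 9.54 to 10.02 in WT DOX and 11.55 to 13.53 in WT saline. The peroxisomal Slc25a17 rose in both, at 23.87 to 25.13, 15.39 to 16.2 and 12.64 to 13.19 FPKM in the same order. Slc25a32, which carries folate or FAD, had 4.29 to 4.73 FPKM in Sting-/- DOX, 3.63 to 3.99 in WT DOX and 3.58 to 4.11 in WT saline.

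The iron and glutathione carriers, 4 in all, had no member that passed in WT DOX against WT saline by limma (0 of 4, also at an unadjusted p under 0.05), and both mitoferrins rose in Sting-/- DOX. Mitoferrins bring iron to the matrix for haem and iron-sulphur clusters, mitoferrin-1 mainly in developing red cells and mitoferrin-2 more widely. Slc25a37 (mitoferrin-1) had 14.92, 15.13 and 14.7 FPKM in Sting-/- DOX, 8.41, 9.64 and 7.38 FPKM in WT DOX and 7.45, 8.13 and 8.17 FPKM in WT saline. Slc25a28 (mitoferrin-2) had 35.26, 34.83 and 34.04 FPKM in Sting-/- DOX, 20.93, 22.43 and 21.15 FPKM in WT DOX and 25.0, 19.07 and 19.18 FPKM in WT saline. In both genes the Sting-/- libraries lay above all wild-type libraries in FPKM and the wild-type groups overlapped. Against WT saline, Slc25a28 was 0.70 higher in Sting-/- DOX, but 0.13 under median-ratio scaling, which did not pass (adjusted p = 0.179). The change in Sting-/- DOX against WT DOX was 0.76 for Slc25a37 (adjusted p = 1.86e-06) and 0.67 for Slc25a28 (adjusted p = 1.18e-05). The erythroid markers given above rose in the same comparison, and their part in the level of Slc25a37 was not tested.

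Slc25a39, a carrier needed for glutathione in the matrix, was the fourth most abundant carrier of the Sting-/- DOX hearts and passed in no comparison. It stood at 94.49, 101.52 and 99.13 FPKM in Sting-/- DOX, 99.82, 89.46 and 93.54 FPKM in WT DOX and 95.25, 103.71 and 96.48 FPKM in WT saline. The groups overlapped, and the change was 0.062 ± 0.050 in Sting-/- DOX against WT DOX (adjusted p = 0.265) and -0.063 ± 0.050 in WT DOX against WT saline (adjusted p = 0.286). Under median-ratio scaling the same changes were -0.28 and -0.31, and both passed there, so its lack of a call depends on the scaling. Its paralogue Slc25a40 had 5.28 to 5.83 FPKM in Sting-/- DOX, 4.83 to 5.47 in WT DOX and 4.69 to 4.96 in WT saline and passed in neither main comparison in FPKM, but fell in Sting-/- DOX against WT DOX under median-ratio scaling (-0.21).

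The uncoupling-protein-like carriers, 3 in number, have uncertain substrates in the heart. Slc25a27 (UCP4), best known from brain, had 7.19, 7.75 and 7.46 FPKM in Sting-/- DOX, 1.4, 2.16 and 1.83 FPKM in WT DOX and 2.45, 3.03 and 2.64 FPKM in WT saline. WT DOX was the lowest group and Sting-/- DOX the highest, without overlap. Its rise of 1.61 in Sting-/- DOX against WT DOX (adjusted p = 1.52e-08) was the largest of any tested carrier there, after a change of -0.41 ± 0.10 in WT DOX against WT saline (adjusted p = 0.00316). Slc25a30 had 3.2, 2.95 and 3.14 FPKM in Sting-/- DOX, 3.27, 3.92 and 3.67 FPKM in WT DOX and 1.88, 2.14 and 2.67 FPKM in WT saline. It rose by 0.52 ± 0.10 in WT DOX against WT saline (adjusted p = 0.00043) and had -0.17 in Sting-/- DOX against WT DOX (adjusted p = 0.112). Under median-ratio scaling and quantile normalisation the second of these was -0.42 (adjusted p = 0.00139) and -0.50 (adjusted p = 0.00028), and passed as lower. Slc25a14 passed as higher in Sting-/- DOX against each wild-type group, at 2.22 to 4.02 FPKM in Sting-/- DOX, 1.5 to 1.74 in WT DOX and 0.96 to 1.25 in WT saline.

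The less characterised carriers held the deepest fall and a steep rise. Slc25a34, whose substrate is not settled, had 5.34, 5.72 and 6.69 FPKM in Sting-/- DOX, 59.9, 55.29 and 58.4 FPKM in WT DOX and 92.47, 88.23 and 90.44 FPKM in WT saline. The groups were far apart, and its changes of -3.09 in Sting-/- DOX against WT DOX (adjusted p = 8.71e-13) and of -3.73 in Sting-/- DOX against WT saline (adjusted p = 9.36e-14) were the lowest of all tested carriers. Its change in WT DOX against WT saline was -0.64 ± 0.06 (adjusted p = 3.59e-06). Slc25a45 ran opposite, with 17.21, 18.23 and 16.08 FPKM in Sting-/- DOX, 6.67, 6.08 and 5.61 FPKM in WT DOX and 2.89, 3.35 and 2.65 FPKM in WT saline. Each group lay above the next, with a rise of 1.35 in Sting-/- DOX against WT DOX (adjusted p = 1.08e-08) and 0.85 ± 0.08 in WT DOX against WT saline (adjusted p = 2.07e-06).

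Slc25a35, a close relative of Slc25a34 that overlaps Rangrf, had 3.49 to 4.74 FPKM in Sting-/- DOX, 4.31 to 4.45 in WT DOX and 6.51 to 7.92 in WT saline, and was lower in both doxorubicin groups than in WT saline. Its change in Sting-/- DOX against WT DOX did not pass in FPKM but was -0.39 and -0.43, and passed, under median-ratio scaling and quantile normalisation. Slc25a46, which takes part in the shaping of mitochondria, had 11.05 to 12.54 FPKM in Sting-/- DOX, 22.28 to 23.09 in WT DOX and 23.2 to 24.62 in WT saline, and was lower in Sting-/- DOX than in each wild-type group. The change of Slc25a46 in WT DOX against WT saline passed as lower under both of these scalings (-0.32 and -0.25), though not in FPKM. Slc25a47, best known from liver, passed as higher in Sting-/- DOX against WT DOX although the ranges overlapped, at 1.7 to 3.32 and 1.32 to 2.13 FPKM. Slc25a43 and Slc25a53 were under the filter, with at most 1.18 and 0.59 FPKM in any library.

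The comparison of Sting-/- DOX with WT saline combines the drug and the genotype. Of the 38 carriers, 18 (47.4%) fell and 15 (39.5%) rose, while 25.9% of all genes fell and 63.0% rose, 88.9% in either direction. Ranges were apart for 33 carriers (86.8%) and 89.2% of all genes. The carriers' median was -0.036 and that of all genes 0.49. Under median-ratio scaling 25 fell and 8 rose, and under quantile normalisation 25 fell and 9 rose, so the number that rose depends on the scaling. The largest rise was that of Slc25a1, 2.29 (adjusted p = 6.9e-12), followed by Slc25a45 and then Slc25a24 at 1.86. Slc25a51 did not pass here, at 0.082 (adjusted p = 0.23).

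The carriers were then set beside the fall of the cardiomyocyte markers. The mean of the 16 cardiomyocyte markers on the log2 scale changed by -2.38 in Sting-/- DOX against WT DOX and by -0.50 in WT DOX against WT saline, and was subtracted from each carrier in each library. Of the 38 carriers, 35 lay above the marker mean with ranges apart in Sting-/- DOX against WT DOX. The same count was not made over all genes. The median change of all genes was 0.25 there and 0.13 in WT DOX against WT saline, so such a position sets a carrier apart little. Slc25a4 moved with the marker mean, at -0.03 with overlapping ranges, and Slc25a13 (-0.38) and Slc25a34 (-0.72) fell beyond that mean. Single markers changed by -3.59 to -1.305 there, so both carriers, at -2.75 and -3.09, lay within the spread of the markers. Slc25a20 lay 0.22 above the marker mean, Slc25a11 0.46, Slc25a12 0.58, Slc25a3 0.76 and Slc25a5 1.11. With doxorubicin in wild-type hearts, against saline, 26 carriers lay above the marker mean with ranges apart, among them Slc25a4 at 0.05, and 7 overlapped. Slc25a11, Slc25a13, Slc25a26, Slc25a34 and Slc25a42 fell beyond the mean. Single markers changed by -1.135 to 0.18 in this comparison, so these carriers also lay within the spread of the markers. The coenzyme A carrier Slc25a42 was at -0.24 there. These differences depend on the markers chosen, which include genes of energy metabolism, and are given as a description, with no test.

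**Figure D5:**
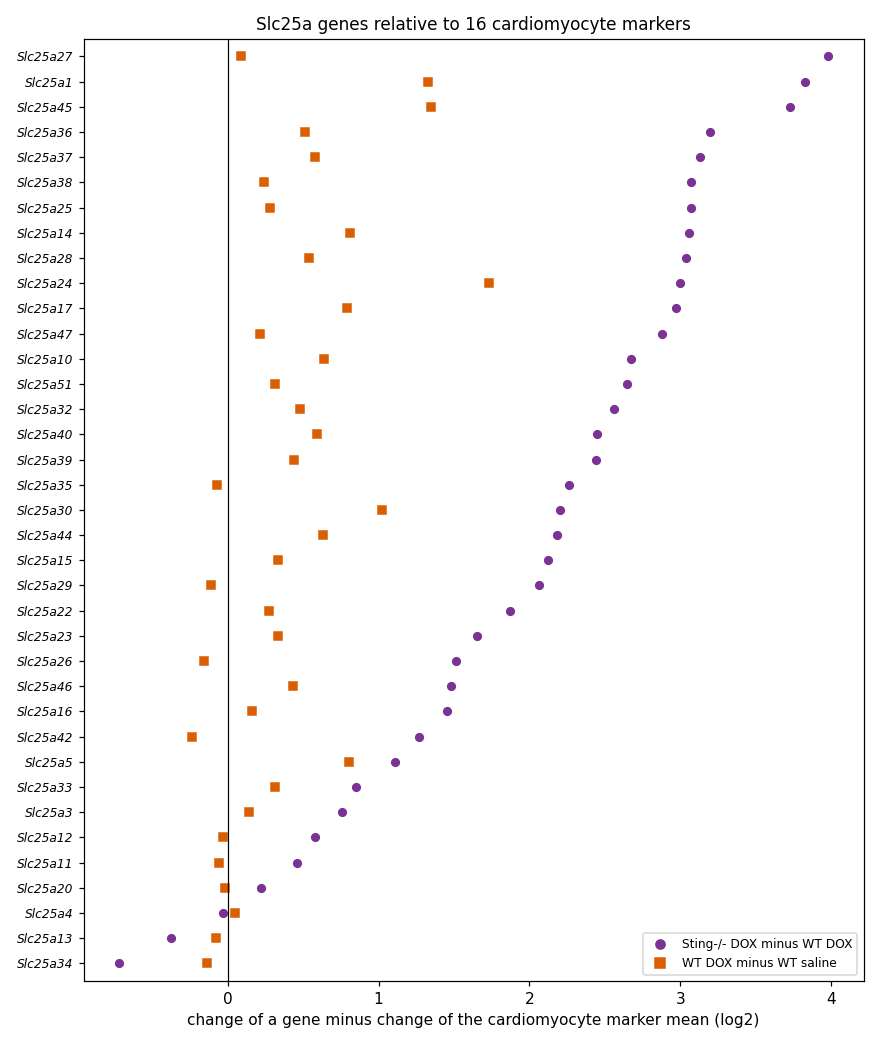
Change of 37 tested carriers minus the change of the mean of 16 cardiomyocyte markers, on the log2(FPKM + 1) scale. The comparisons are Sting-/- DOX against WT DOX and WT DOX against WT saline, and 0 means that a carrier changed as the marker mean did. Slc25a4 lies at -0.03 in Sting-/- DOX against WT DOX. Slc25a13 and Slc25a34 are the carriers below the marker mean with ranges apart there, at -0.38 and -0.72.

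Genes of mitochondrial transport outside the symbol rule gave a setting for these values. Of the 4 tested family members with other names, Ucp2, an uncoupling protein of immune and other non-muscle cells, averaged 257 ± 5.81 FPKM in Sting-/- DOX, 121 ± 14.4 FPKM in WT DOX and 41.7 ± 1.86 FPKM in WT saline, and Ucp3, the muscle form, averaged 5.89 ± 1.10, 33.2 ± 3.69 and 44.2 ± 1.03 FPKM in the same order (SD, n = 3 each). Both changed in each main comparison, Ucp2 upward and Ucp3 downward. Over the 4, 1 rose and 2 fell in WT DOX against WT saline, and 2 rose and 2 fell in Sting-/- DOX against WT DOX. The largest rise in the latter, 1.655, was not that of Ucp2, which changed by 1.093. The macrophage and monocyte markers, which rose as Ucp2 did in WT DOX against WT saline (10 of 10), rose in 6 and fell in 4 in Sting-/- DOX against WT DOX, and their part was not tested. Among 18 other inner membrane transporters, 8 rose and 6 fell in WT DOX against WT saline (5 and 9 under median-ratio scaling). In Sting-/- DOX against WT DOX 8 rose and 7 fell (7 and 9). Thus 44.4% rose and 33.3% fell in the first, beside 45.3% and 21.5% of all genes. In the second 44.4% rose and 38.9% fell, beside 54.1% and 29.7%. Mpc1 and Mpc2, the mitochondrial pyruvate carrier, averaged 170 ± 6.16 and 66.9 ± 1.28 FPKM in Sting-/- DOX, 666 ± 25.9 and 293 ± 13.6 FPKM in WT DOX and 876 ± 21.7 and 394 ± 5.11 FPKM in WT saline. Mcub, a dominant-negative subunit of the calcium uniporter, rose in both comparisons, by 0.76 in Sting-/- DOX against WT DOX (adjusted p = 2.49e-05) and 1.48 in WT DOX against WT saline (adjusted p = 1.41e-07).

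The machinery that brings carriers to the inner membrane fell in Sting-/- DOX: of 13 genes, 11 fell and 1 rose against WT DOX (median -0.71). Between WT DOX and WT saline 7 rose and 2 fell (median 0.22). Under median-ratio scaling 3 rose and 5 fell (median -0.031), so the direction of this list there depends on the scaling. Over all genes 29.7% fell and 54.1% rose in Sting-/- DOX against WT DOX (median 0.25). In WT DOX against WT saline 21.5% fell and 45.3% rose (median 0.13). Timm10, a chaperone of the intermembrane space, averaged 20.4 ± 1.78 FPKM in Sting-/- DOX, 95.8 ± 5.15 FPKM in WT DOX and 81.3 ± 2.05 FPKM in WT saline, and Tomm70a, the outer membrane receptor for carrier precursors, 12.5 ± 0.28, 31.6 ± 1.17 and 25.8 ± 0.27 FPKM in the same order. The rises of Timm10 and Tomm70a in WT DOX against WT saline, 0.23 and 0.28, were -0.018 and 0.035 under median-ratio scaling and did not pass there. Tomm20, another import receptor of the outer membrane, averaged 21.9 ± 1.06 FPKM in Sting-/- DOX, 28.3 ± 1.64 FPKM in WT DOX and 21.2 ± 1.02 FPKM in WT saline. Of 4 outer membrane genes, 3 pore genes and Tspo, the pore genes fell and Tspo rose in Sting-/- DOX against WT DOX. That rise of Tspo, 0.33, was -0.011 under median-ratio scaling and did not pass there. In WT DOX against WT saline 2 fell and 2 rose (2 and 1 under median-ratio scaling). Vdac1, the main metabolite pore, changed by -2.05 in Sting-/- DOX against WT DOX (adjusted p = 1.3e-13) and Tspo by 1.90 in WT DOX against WT saline (adjusted p = 9.38e-12).

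Most enzymes that work with the carriers also fell. Among 11 partners of the shuttles and of carnitine transport, 9 fell and 1 rose in Sting-/- DOX against WT DOX (median -2.46). In WT DOX against WT saline 8 fell and 2 rose (median -0.39). Over all genes 29.7% fell and 54.1% rose in the first (median 0.25), and 21.5% and 45.3% in the second (median 0.13). Ckmt2, the mitochondrial creatine kinase of striated muscle, which draws on the ATP exported by ANT1, averaged 112 ± 4.27 FPKM in Sting-/- DOX, 1150.4 ± 26.6 FPKM in WT DOX and 1887 ± 50.8 FPKM in WT saline. Got1, the cytosolic aminotransferase of the malate-aspartate shuttle, averaged 33.8 ± 0.79, 306 ± 10.9 and 372 ± 13.5 FPKM, and Cpt2, the carnitine palmitoyltransferase on the matrix side, 15 ± 0.72, 86.9 ± 2.09 and 143 ± 1.26 FPKM in the same order. Their changes in Sting-/- DOX against WT DOX were -3.35, -3.14 and -2.46. Cpt1a, the outer membrane form that predominates outside muscle, was the one that rose there, by 0.25 (adjusted p = 0.00227), a change of -0.085 under median-ratio scaling.

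Promoters of 4 carriers that typify these patterns are given: Slc25a4 as the most abundant, Slc25a34 as the deepest fall, and Slc25a1 and Slc25a24 as rises in both comparisons. Each runs 5′ to 3′ on the strand of its gene, over 300 bases from 250 before to 50 after the RefSeq start in build GRCm38.p6. The Slc25a4 promoter lies at chr8:46211013-46211312 on the minus strand, that of Slc25a34 at chr4:141623785-141624084 on the minus strand, that of Slc25a1 at chr16:17928170-17928469 on the minus strand and that of Slc25a24 at chr3:109122899-109123198 on the plus strand. Capitals mark matches, on either strand, to any of 7 motifs: the NRF1 motif (GCGC, any 2 bases, GCGC), the ERR element AAGGTCA, the CCAAT box CCAAT, the E-box CACGTG, the TATA box TATAAA, the GC box GGGCGG and the MEF2 motif (CTA, any 4 bases, TAG), which did not overlap each other in these 4.
Slc25a4: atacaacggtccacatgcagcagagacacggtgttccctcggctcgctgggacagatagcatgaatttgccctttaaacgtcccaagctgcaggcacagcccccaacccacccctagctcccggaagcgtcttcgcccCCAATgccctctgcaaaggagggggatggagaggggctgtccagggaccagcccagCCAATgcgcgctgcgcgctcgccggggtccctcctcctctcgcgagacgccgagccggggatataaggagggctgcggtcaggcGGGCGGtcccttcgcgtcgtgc
Slc25a34: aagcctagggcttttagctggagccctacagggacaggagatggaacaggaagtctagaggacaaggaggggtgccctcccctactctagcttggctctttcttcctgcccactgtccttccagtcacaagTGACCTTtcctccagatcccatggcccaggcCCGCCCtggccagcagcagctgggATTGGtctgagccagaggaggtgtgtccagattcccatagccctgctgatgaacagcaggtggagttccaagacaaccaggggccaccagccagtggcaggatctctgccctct
Slc25a1: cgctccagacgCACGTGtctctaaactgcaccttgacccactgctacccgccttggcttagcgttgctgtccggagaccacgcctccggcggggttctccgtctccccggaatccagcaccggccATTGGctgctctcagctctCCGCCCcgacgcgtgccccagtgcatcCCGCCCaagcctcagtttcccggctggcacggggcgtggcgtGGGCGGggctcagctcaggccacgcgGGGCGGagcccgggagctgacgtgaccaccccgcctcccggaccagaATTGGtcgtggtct
Slc25a24: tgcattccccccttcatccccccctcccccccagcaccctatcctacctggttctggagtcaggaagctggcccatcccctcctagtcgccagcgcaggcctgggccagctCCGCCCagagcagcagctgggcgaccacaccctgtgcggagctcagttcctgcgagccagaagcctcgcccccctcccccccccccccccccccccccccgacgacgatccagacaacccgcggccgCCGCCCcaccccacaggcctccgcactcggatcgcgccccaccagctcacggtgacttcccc

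These windows held different motifs. That of Slc25a4 had 2 CCAAT boxes and 1 GC box, and that of Slc25a34 had 1 ERR element, 1 CCAAT box and 1 GC box. Slc25a1 had 4 GC boxes, 2 CCAAT boxes and 1 E-box, and Slc25a24 had 2 GC boxes. Of the 43 carriers, 33 had a promoter in the RefSeq table. A GC box was in 29 of these (87.9%), against 60.8% of the 13326 genes of the files with a promoter, and a CCAAT box in 18 (54.5%, against 42.3%). An E-box was in 7 (21.2%, against 10.5%), the NRF1 motif in 3 (9.09%, against 12.3%), the MEF2 motif in 2 (6.06%, against 3.81%), and the TATA box (3.03%, against 10.4%) and the ERR element (3.03%, against 4.27%) in 1 each. Carriers that fell in both main comparisons and those that rose in both had a GC box in 11 of 13 and in 4 of 4. A match is a run of letters in this window and not a shown binding site, and no test was made.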

How the data were processed

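Heart RNA-seq was compared between 3 groups of 3 libraries, whose labels are in the titles. Total RNA was prepared with a QIAGEN kit and sequenced from MGI libraries, per the labels' protocols. FPKM values per gene and library were deposited by the authors, for the same 16873 Entrez IDs in each. The submitters' processing notes name RSEM 1.2.12, HISAT2 2.0.4 and Bowtie2 2.2.5 and the build GRCm39, without saying what each was used for. Because FPKM is scaled to the library's own total, a shift in abundant genes moves all others. Without read counts, a count model could not be fitted. The 10 most abundant genes held 8.09% to 8.44% of FPKM in Sting-/- DOX, 11.51% to 12.05% in WT DOX and 16.55% to 16.62% in WT saline. Depth was estimated from the steps of low values, of which 55.4% to 65.1% lay within 0.1 of a whole read, so it is approximate and limits the low carriers most.

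Symbols came from a RefSeq table of GRCm38.p6, which matched 16825 IDs. Of the other 48, 4 were named through GENCODE, none of them a Slc25a gene, and 44 stayed without a symbol. Slc25a21, Slc25a41, Slc25a48, Slc25a54 and Slc25a5-ps were not analysed here. Of the tested carriers, 1 is counted in the sums and counts but not reported here by itself. Promoters and their coordinates are those of RefSeq on GRCm38.p6, not of the build of the files.

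The test was limma on log2(FPKM + 1), version 3.58.1 in R 4.3.3 (trended prior, all 9 libraries in 1 fit, 6 residual degrees of freedom, two-sided), on the 12485 genes that averaged 1 FPKM or more, with Benjamini-Hochberg adjustment at 0.05. The limma step was tested on simulated data. Python 3.11.15 with pandas 2.3.3, scipy 1.17.1 and matplotlib 3.10.9 served for sums, permutation tests and figures. Members with full statistics were a panel of 14, the 4 largest rises and falls of each comparison with ranges apart, and members called in opposite directions in the main comparisons. Other lists gave up to 3 genes in the direction of most of the list and 2 in the other, of which some are named. The members, the lists and the rule were chosen with earlier results of these data known, and the motifs after the values were seen. Alternatives covered pseudocount, filter, scaling, fits of 2 groups, a prior without trend, a replicate block and leaving out each library.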

Additional observations from a re-analysis of the deposited data

How the results depend on the processing

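Of 1230 refits of the named members, 1186 kept direction and side of the threshold, 11 no longer passed, 8 newly passed and 25 reversed; of 756 for named genes of other lists, 744 kept both, 6 no longer passed and 6 reversed. Scaling moved most: in Sting-/- DOX against WT saline 8 members rose under median-ratio scaling and 9 under quantile normalisation, against 15, and median-ratio scaling (applied to sums after seeing the data) gave a family sum of 1276 FPKM in Sting-/- DOX and 8329 in WT saline. Both scalings moved the median of all genes by over 0.1. For Sting-/- DOX against WT saline, median-ratio scaling gave -0.02 for Slc25a25, -0.081 for Slc25a30, -0.128 for Slc25a38, -0.479 for Slc25a51, -0.04 for Cpt1a and -0.529 for Tomm20, and quantile normalisation -0.063 for Slc25a25, -0.269 for Slc25a30, -0.005 for Slc25a38, -0.335 for Slc25a51 and -0.33 for Tomm20. For WT DOX against WT saline, median-ratio scaling gave -0.205 for Slc25a28, -0.222 for Slc25a36, -0.145 for Slc25a37 and -0.018 for Timm10, and quantile normalisation -0.146 for Slc25a28, -0.205 for Slc25a36 and -0.143 for Slc25a37. For Sting-/- DOX against WT DOX, median-ratio scaling gave -0.278 for Slc25a39, -0.052 for Slc25a51, -0.085 for Cpt1a and -0.011 for Tspo. TPM scaling gave -0.016 for Slc25a36 in WT DOX against WT saline and 0.033 for Slc25a39 in Sting-/- DOX against WT saline.

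Leaving out each library in turn gave 6 to 7 members higher and 18 to 20 lower in WT DOX against WT saline, 14 to 16 and 16 to 18 in Sting-/- DOX against WT DOX, and 13 to 15 and 18 in Sting-/- DOX against WT saline. Signs turned in some of these refits for values near 0, with ranges of -0.026 to 0.161 for Slc25a28, -0.008 to 0.032 for Slc25a36 and -0.005 to 0.167 for Slc25a37 in WT DOX against WT saline, and of -0.024 to 0.036 for Slc25a39 in Sting-/- DOX against WT saline. The cause was not tested in any of these.

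Deviations of same-numbered libraries correlated at -0.032 to 0.104 over 9 pairs, and those of differently numbered libraries at -0.066 to 0.035. Such correlations cannot settle whether equal numbers mark a shared animal, litter or day. With a replicate block, 7 members rose and 20 fell in WT DOX against WT saline, 16 rose and 18 fell in Sting-/- DOX against WT DOX, and 14 rose and 18 fell in Sting-/- DOX against WT saline. Without the filter, Slc25a2 and Slc25a18 also passed in Sting-/- DOX against WT DOX, at 0.66 and 0.53. Depth limits the 5 members under the filter most.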
